A study of Mus musculus with 6 samples.

Results

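The collagen genes were followed through all 86 array probes whose gene name is Col, a number, the letter a and a number, for 43 collagen genes. The whole array held 41174 gene probes with 27376 gene names. Total RNA from the testis of 6 mice was hybridised to 1-colour Agilent arrays, 1 mouse per array, with 0.5 ug of RNA per sample labelled with Cy3. The wild-type group (WT) held 3 mice, and the Prss54KO group held 3 mice labelled as knockouts of Prss54, a gene for a serine protease-like protein made in the testis. All mice were males aged 6 to 8 weeks on a mixed 129Sv/C57BL/6 background, and neither carried a treatment or a transgene that the labels name. The comparison asks which testis transcripts differ when Prss54 is missing. The labels give neither the litters nor the part of the gene that was removed, so the p-values below measure only the spread between these mice.

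All collagens share a repeat in which glycine returns at regular steps along the chain, which lets the chains wind into a triple helix. Fibrillar collagens such as types I, III and V build the fibrils of connective tissue, and type IV collagen forms the network of basement membranes. Type VI forms fine filaments, FACIT collagens sit on the surface of fibrils, and multiplexins lie next to basement membranes. In the testis, a basement membrane and a layer of peritubular cells surround each seminiferous tubule, and fibrillar collagen fills the capsule and the tissue between the tubules.

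A level is given here as the log2 of a probe's processed signal minus the 75th percentile of its own array, and a difference is Prss54KO minus WT on that scale. A probe was tested where at least 3 of the 6 arrays read it well above background. That mark was carried by 66.2% to 74.8% of the gene spots of an array, none was saturated, and the 6 arrays correlated with each other at r of 0.994 to 0.996 over 28913 tested probes. The Prss54 probe read 22677, 24153 and 26120 in WT and 7381, 9466 and 8416 in Prss54KO. All knockout signals were below all wild-type signals, 2.96-fold on average, but the call was not past the threshold after adjustment over all probes (limma, adjusted p = 0.121). The sources used here do not say whether this probe lies in the removed part. All 12 germ cell marker genes examined were well above background on every array, as were 9 of 10 Sertoli cell markers and all 10 markers of peritubular smooth muscle.

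The repeat of the triple helix could be read in the probes themselves. In 3 of the 86 collagen probes, or 3.49%, a glycine codon (GGN, any base in the last place) stood at every 9th base from the first to the last codon the probe holds. Over all 41174 probes of the array the same 3 were the only ones. They are printed because they show the part of a collagen message that these oligos detect. Capitals mark the GGN codons, the position is the mm9 interval in the scanner files, and an interval longer than 60 bases means that the 60-base probe crosses from one exon to another. The Col5a1 probe lies at chr2:27842243-27844666 on the plus strand, the Col5a3 probe at chr9:20590066-20590795 on the minus strand and the Col11a2 probe at chr17:34189287-34189453 on the plus strand.
Col5a1: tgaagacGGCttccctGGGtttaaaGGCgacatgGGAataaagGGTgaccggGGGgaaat
Col5a3: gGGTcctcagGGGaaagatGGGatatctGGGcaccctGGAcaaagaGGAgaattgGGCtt
Col11a2: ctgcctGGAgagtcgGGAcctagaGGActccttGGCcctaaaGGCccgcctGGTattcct
The Col5a1 and Col11a2 probes passed the filter and the Col5a3 probe did not. A further pair of probes, both for Col2a1, overlap by 40 bases, shown in capitals, so they detect nearly the same stretch of RNA at chr15:97806505-97806564 and chr15:97806485-97806544 of mm9 on the minus strand.
Col2a1 first probe: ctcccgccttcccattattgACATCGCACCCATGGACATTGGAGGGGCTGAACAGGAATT
Col2a1 second probe: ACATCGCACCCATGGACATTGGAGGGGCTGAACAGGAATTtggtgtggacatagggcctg
The overlapping pair gives a measure of how well the arrays repeat a small pattern. The level of the first probe was 0.15, 0.33 and 0.10 in WT and 0.24, 0.43 and 0.16 in Prss54KO. The second probe gave 0.05, 0.24 and 0.02 in WT and 0.15, 0.33 and 0.04 in Prss54KO. Both ranked the 6 mice in the same order, except that WT replicate 1 and knockout replicate 3 changed places, and they correlated at r of 0.99. Knockout replicate 2 was highest and WT replicate 3 lowest at both probes.

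Most collagen genes gave a signal in testis. Of the 86 probes, 58 were tested, for 41 of the 43 genes, which is 67.4% of collagen probes against 70.2% of all probes. Of these 58 probes, 55 were well above background on all 6 arrays and 3 on 3 to 5 arrays. The other 28 probes had signals of 4.87 to 50.8, and 24 of them were above background on no array. Col10a1, a short-chain collagen of growth-plate cartilage, and Col6a6 were the genes with no tested probe. By class, 19 of 26 fibrillar, 11 of 13 type IV, 6 of 10 type VI, 11 of 16 FACIT, 3 of 4 multiplexin and 4 of 11 transmembrane collagen probes were tested. The fibrillar and transmembrane classes thus each had 7 untested probes, out of 26 and 11, a much smaller share of the fibrillar ones. Signals of different probes depend on their sequence, so no order of abundance among the collagens is drawn from them.

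No collagen probe passed the test between genotypes, and none of the 28913 probes on the array did (limma with Benjamini-Hochberg adjustment over all tested probes, 0% called). The adjusted p was 0.999 for each of the 58 collagen probes. Intervals given below are those of single probes, with no adjustment. At an unadjusted p under 0.05, limma gave 7 of 58 collagen probes, against 936 of 28913 probes overall (3.24%). Among these 7 probes, 5 were lower in Prss54KO, where the background is 1.5%, and 2 were higher, where it is 1.73%. The 5 lower ones were for Col1a1, Col3a1, Col8a2, Col12a1 and Col27a1, and the 2 higher ones for Col9a2 and Col6a4. The count of 7 became 1 without WT replicate 1, or 1.72% against 1.99% of all probes, and 15 without knockout replicate 3, or 25.9% against 3.53%. With no filter on dim probes it was 3 of 86, or 3.49% against 4.06%. Over all tested collagen probes, 37 of 58 differences lay below 0, against 47.2% of all probes, and the median difference was -0.08, against 0.01 for all probes. With the brightest probe of each gene alone, 27 of 41 collagens lay below 0, with a median of -0.10. In 6 of 58 probes all knockout mice lay below all wild-type mice (3.57% of all probes), and in 1 all lay above (4.2% of all probes). Differences of more than 0.5 in size were seen in 5 of 58 (1.39% of all probes). Each of the counts of lower, non-overlapping and large differences holds 1 dim Col12a1 probe that was above background on all WT arrays and on only 1 knockout array.

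**Figure D1:**
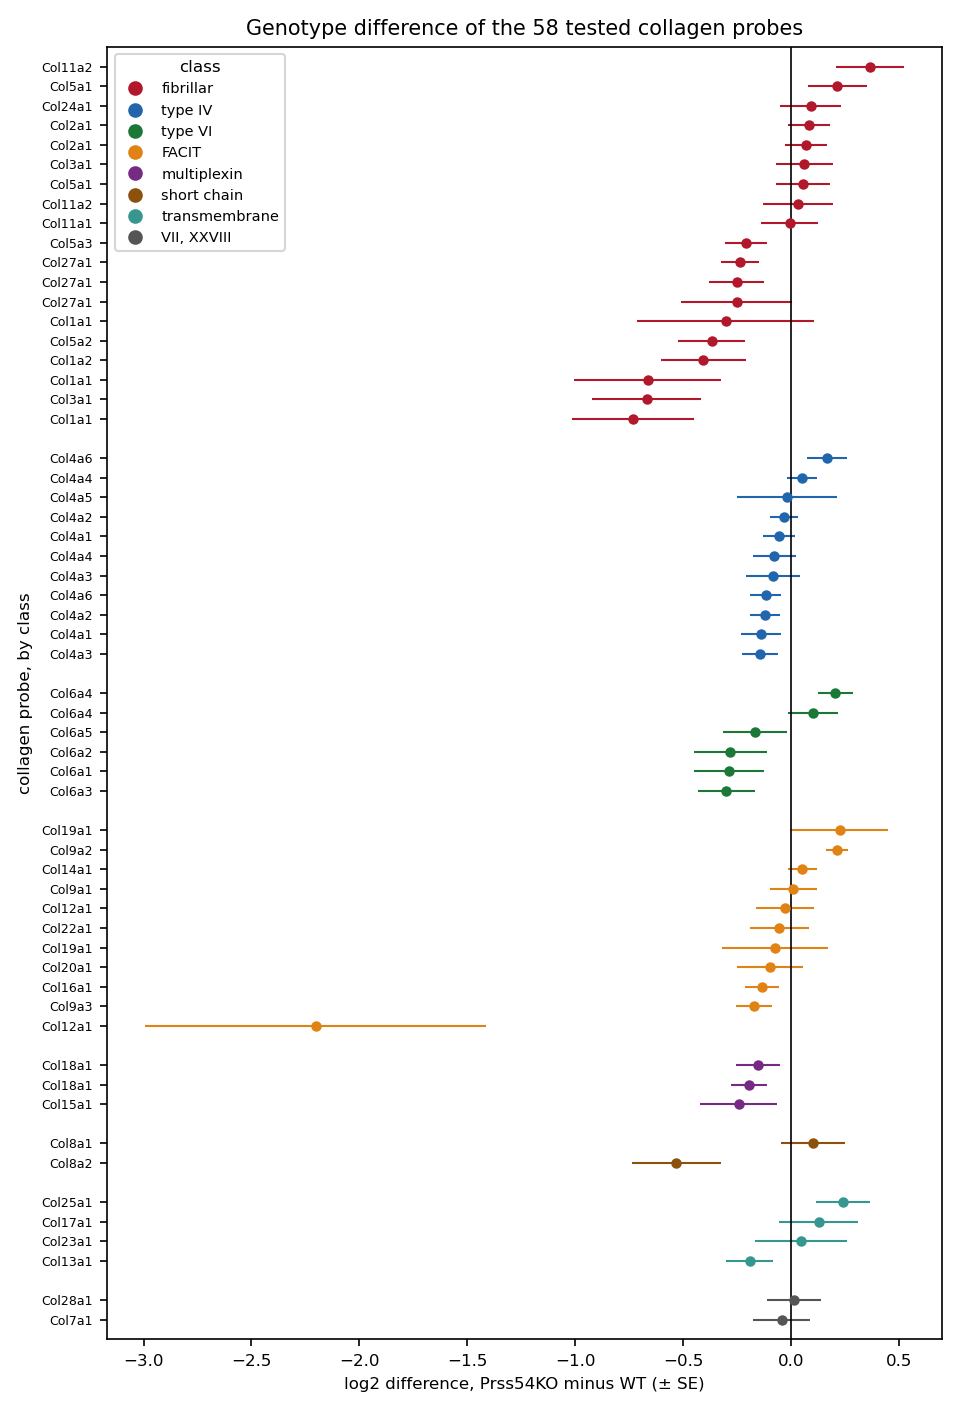
Difference between genotypes (horizontal axis, log2, Prss54KO minus WT, 3 mice each) for each of the 58 tested collagen probes, one line per probe, grouped and coloured by class. Points are limma's estimates and bars their standard errors. Most fibrillar probes for types I, III and V lie left of 0 at up to -0.73, type IV probes lie within -0.15 to 0.17, and 1 Col12a1 probe, above background on only 1 knockout array, lies at -2.20 with a wide bar.

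The fibrillar collagens held the widest range of differences among the well-measured probes. Of their 19 tested probes, 11 were below 0, with a median of -0.21 and a range of -0.73 to 0.36. That median was -0.07 without WT replicate 3, -0.03 without knockout replicate 1 and -0.06 without knockout replicate 2, and 0.01 over all 26 fibrillar probes with no filter on dim ones. None passed the adjusted test, and 3 of 19 had an unadjusted limma p under 0.05, all lower. Over all probes, 1.5% were lower and 1.73% higher at that level. Col1a1 encodes the alpha 1 chain of type I collagen, the main fibril protein. Its brightest probe, at chr11:94813075-94813134, gave levels of 0.94, 0.83 and 1.14 in WT and 0.39, -0.41 and 0.72 in Prss54KO. The knockout mice all lay below the wild-type mice, replicate 3 only just and replicate 2 by far the most. The difference was -0.73 (SE 0.28, 95% interval -1.42 to -0.05, 1.66-fold lower). This probe was spotted 9 to 10 times per array, and the median SD between its spots was 0.05, against 0.16 between the WT mice and 0.58 between the knockout mice.

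Col3a1 encodes the single chain of type III collagen, found beside type I in loose connective tissue. Its brightest probe, at chr1:45405589-45405648, gave 1.88, 1.82 and 2.14 in WT and 1.43, 0.71 and 1.68 in Prss54KO. The order of the mice was that of Col1a1, with replicate 2 of the knockouts again lowest and no overlap between genotypes. The difference was -0.67 (SE 0.25, 95% interval -1.28 to -0.06). Col1a2, the alpha 2 chain that pairs with Col1a1 in type I collagen, gave 3.44, 3.30 and 3.62 in WT and 3.15, 2.63 and 3.36 in Prss54KO. Here the genotypes overlapped, since knockout replicate 3 lay above WT replicate 2. The Col1a2 difference was -0.41 (SE 0.20, 95% interval -0.89 to 0.07).

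Type V chains join type I in mixed fibrils and set their width. Col5a2 gave -3.35, -3.50 and -3.02 in WT and -3.55, -3.90 and -3.52 in Prss54KO, so the genotypes did not overlap, though knockout replicate 3 lay close to WT replicate 2. Its difference was -0.37 (SE 0.16, 95% interval -0.75 to 0.01). The Col5a1 chain of the same collagen did not follow: its brightest probe gave 0.28, 0.20 and 0.58 in WT and 0.24, 0.53 and 0.44 in Prss54KO. These values overlapped fully and differed by 0.05 (SE 0.13). Col5a3, a minor type V chain, differed by -0.21 (SE 0.10) with overlap. Col27a1, a fibrillar collagen known from cartilage, was the other fibrillar gene with a probe under 0.05, at -2.32, -2.48 and -2.48 in WT and -2.82, -2.63 and -2.55 in Prss54KO. All knockout mice were lower, by 0.24 on average (SE 0.09, 95% interval -0.46 to -0.02), and the other 2 Col27a1 probes gave -0.25 each with overlap.

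The type II and type XI chains, which form the fibrils of cartilage, did not pass the adjusted test either. Both Col2a1 probes, for the type II chain, were 0.07 and 0.08 higher in Prss54KO (SE 0.10 each). The Col11a1 probe differed by -0.01 (SE 0.13). Col11a2, a chain that joins type II fibrils, had a probe with the GGN repeat printed above, at -4.78, -4.91 and -4.42 in WT and -4.50, -4.41 and -4.12 in Prss54KO. The genotypes overlapped through WT replicate 3, and the difference was 0.36 (SE 0.16, 95% interval -0.02 to 0.75). Its brighter probe gave -2.69, -2.37 and -2.83 in WT and -2.85, -2.57 and -2.37 in Prss54KO, fully overlapping, and differed by 0.03 (SE 0.16). Col24a1, a further fibrillar chain, differed by 0.09 (SE 0.14).

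**Figure D2:**
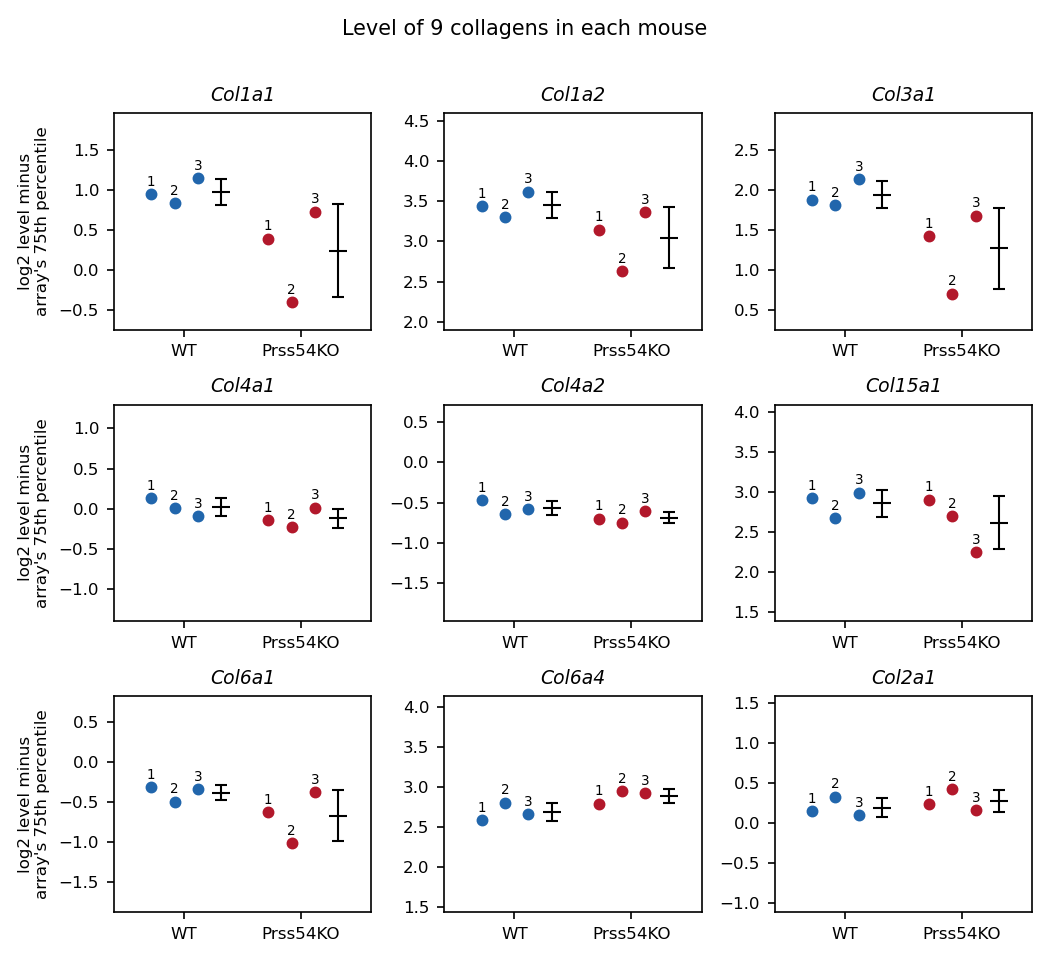
Level of 9 collagens (brightest tested probe of each; vertical axis, log2 signal minus the array's 75th percentile, all panels spanning the same range) in each WT and Prss54KO mouse. Points are mice with their replicate numbers, and the bar beside them is the mean with the SD of 3 mice. Knockout replicate 2 is lowest for Col1a1, Col1a2, Col3a1 and Col6a1, at -0.41, 2.63, 0.71 and -1.01. It is also lowest for Col4a1 and Col4a2, at -0.23 and -0.75, but these and Col6a4 vary less between mice.

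Type IV chains form basement membranes. Of 11 tested type IV probes, for all 6 chains, 9 were below 0, the median was -0.08, and none had an unadjusted limma p under 0.05 or separated the genotypes. Without knockout replicate 3 the median was -0.16. Col4a1 and Col4a2, the chains of the widespread form of type IV collagen, are encoded head to head. Col4a1 gave 0.13, 0.01 and -0.09 in WT and -0.15, -0.23 and 0.01 in Prss54KO. Knockout replicate 3 lay among the wild-type mice, and the difference was -0.14 (SE 0.09, 95% interval -0.36 to 0.08). Col4a2 gave -0.47, -0.65 and -0.59 in WT and -0.70, -0.75 and -0.61 in Prss54KO, again with knockout replicate 3 inside the WT range, and differed by -0.12 (SE 0.07).

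Col4a3, Col4a4 and Col4a5 form a second type IV network, known from the kidney and also described in testis. Col4a3 gave -1.70, -1.69 and -1.86 in WT and -1.94, -1.98 and -1.77 in Prss54KO, a difference of -0.15 (SE 0.08) with overlap. The brighter Col4a4 probe gave 0.51, 0.53 and 0.47 in WT and 0.49, 0.49 and 0.68 in Prss54KO, and differed by 0.05 (SE 0.07). The only tested Col4a5 probe was dim, at -4.95, -4.82 and -4.38 in WT and -4.92, -5.00 and -4.30 in Prss54KO, and in both genotypes replicate 3 was highest. Its difference was -0.02 (SE 0.23), and -0.58 on the only slide that held both genotypes. Col4a6, which pairs with Col4a5 in a network of its own, gave -2.02, -2.02 and -2.07 in WT and -2.23, -2.21 and -2.02 in Prss54KO at its brighter probe. Knockout replicates 1 and 2 lay below the wild-type range and replicate 3 inside it, with a difference of -0.12 (SE 0.07), while the second Col4a6 probe differed by 0.17 (SE 0.09), from -2.60, -2.61 and -2.34 in WT to -2.32, -2.29 and -2.44 in Prss54KO.

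Multiplexins lie at the border of basement membrane and connective tissue. Col18a1, the source of endostatin, gave 1.12, 1.04 and 0.87 in WT and 0.90, 0.81 and 0.74 in Prss54KO. Knockout replicate 1 lay just above WT replicate 3, so the genotypes overlapped, and the difference was -0.19 (SE 0.08, 95% interval -0.40 to 0.01). On the slide with both genotypes it was -0.02. Col15a1 gave 2.92, 2.68 and 3.0 in WT and 2.91, 2.70 and 2.26 in Prss54KO. Here knockout replicate 3 and not replicate 2 was lowest, and the difference of -0.24 (SE 0.18) came with full overlap of the other 5 mice. All 3 multiplexin probes were below 0, with a median of -0.19.

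Type VI collagen is built from the chains of Col6a1, Col6a2 and one further chain such as Col6a3. Col6a1 gave -0.31, -0.49 and -0.33 in WT and -0.62, -1.01 and -0.37 in Prss54KO. Col6a2 gave -2.18, -2.38 and -2.05 in WT and -2.51, -2.78 and -2.17 in Prss54KO. In both, knockout replicates 1 and 2 lay below all wild-type mice and replicate 3 inside their range. The differences were -0.29 (SE 0.16) for Col6a1 and -0.28 (SE 0.17) for Col6a2, and without knockout replicate 2 they were -0.12 and -0.14. Col6a3 gave -0.38, -0.62 and -0.17 in WT and -0.61, -0.85 and -0.61 in Prss54KO, a difference of -0.30 (SE 0.13, 95% interval -0.62 to 0.02) with overlap through WT replicate 2. Col6a4, an alternative for that chain, went the other way at its brighter probe, with 2.58, 2.80 and 2.66 in WT and 2.79, 2.94 and 2.92 in Prss54KO. The genotypes overlapped by 1 pair of mice, and the difference was 0.20 (SE 0.08, 95% interval 0.01 to 0.40). Its dimmer probe gave 0.10 (SE 0.12), and Col6a5 gave -0.17 (SE 0.15). Over the 6 type VI probes, 4 were below 0 and the median was -0.23.

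Of 11 FACIT probes, 1 for Col9a2 was higher and 1 for Col12a1 lower in all knockout mice, against 4.2% and 3.57% of all probes. Col9a2, a chain of the type IX collagen that coats type II fibrils, gave -3.82, -3.78 and -3.85 in WT and -3.58, -3.65 and -3.58 in Prss54KO. All knockout mice were higher and each genotype was tight. The difference was 0.21 (SE 0.05, 95% interval 0.09 to 0.34), and 0.12 with normexp background correction. The partner chains did not share it, with differences of 0.01 (SE 0.11) for Col9a1 and -0.17 (SE 0.09) for Col9a3. Col12a1 encodes a FACIT that binds type I fibrils. Its probe at chr9:79447270-79447329 gave signals of 248, 49.2 and 78.9 in WT and 31.1, 8.4 and 40.3 in Prss54KO. All knockout signals were lower, but only 1 of the 3 knockout arrays was well above background, so the probe passed the filter through WT and the size of the difference is uncertain. WT replicate 1 stood far from the other WT mice. The fitted difference was -2.20 (SE 0.79), and -1.09 with normexp background correction. The second Col12a1 probe, above background on all arrays, gave -4.18, -4.39 and -4.18 in WT and -4.29, -4.04 and -4.52 in Prss54KO, with full overlap and a difference of -0.03 (SE 0.13). Col14a1, another FACIT of type I fibrils, differed by 0.05 (SE 0.07), from -2.07, -1.92 and -2.07 in WT to -1.90, -2.01 and -2.0 in Prss54KO. The single probes of Col16a1, Col20a1 and Col22a1 differed by -0.14, -0.10 and -0.06 with overlap. Over all 11 FACIT probes, 7 were below 0 and the median was -0.06.

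The remaining classes were small. Col8a2, a short-chain collagen of endothelial and corneal membranes, gave -4.10, -4.02 and -4.03 in WT and -4.52, -5.04 and -4.19 in Prss54KO, with no overlap and knockout replicate 2 lowest. It differed by -0.53 (SE 0.21, 95% interval -1.04 to -0.03), and by -0.26 with normexp background correction. Its partner Col8a1 differed by 0.10 (SE 0.15). Of 4 transmembrane collagen probes, 3 were above 0. Among them Col25a1 gave -4.51, -4.45 and -4.07 in WT and -4.20, -4.07 and -4.05 in Prss54KO, a difference of 0.24 (SE 0.13) with overlap through WT replicate 3. Col17a1 and Col23a1 differed by 0.13 and 0.05, and Col13a1 by -0.19 (SE 0.11), all with overlap. Col7a1, which anchors epithelia to the tissue below, differed by -0.05 (SE 0.13), and Col28a1 by 0.01 (SE 0.13).

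Where a collagen had several tested probes, they did not always tell the same story. Among 15 such genes, 4 had probes of opposite sign, 4 had probes that differed by more than 0.3, and 7 met at least one of these. Only 3 of the 15, Col1a1, Col2a1 and Col18a1, had a pair of probes with r over 0.8, and 6 had a pair with r below 0. For Col1a1, the second probe gave -2.14, -2.41 and -1.68 in WT and -2.66, -3.40 and -2.16 in Prss54KO, close to the pattern of the first, with a difference of -0.67 (SE 0.34). One more Col1a1 probe was dim, at -4.97, -5.18 and -4.28 in WT and -4.54, -5.95 and -4.85 in Prss54KO, and differed by -0.30 (SE 0.41). The dim Col3a1 probe, with a WT mean signal of 56.4 against 6549 for the bright one, gave levels of -5.04, -5.08 and -4.65 in WT and -4.86, -4.74 and -4.98 in Prss54KO. Its difference was 0.06 (SE 0.13), WT replicate 3 was highest and the genotypes overlapped, and the 2 Col3a1 probes correlated at r of -0.22. The 2 Col4a6 probes correlated at -0.79, and those of Col4a4 gave 0.05 and -0.08, the second from -0.53, -0.58 and -0.62 in WT and -0.78, -0.74 and -0.45 in Prss54KO. Col19a1, a FACIT, gave -3.13, -2.41 and -3.07 in WT and -3.27, -2.61 and -2.96 in Prss54KO at its brighter probe, where replicate 2 was highest in both genotypes, and differed by -0.07 (SE 0.25). Its dimmer probe gave -5.90, -5.64 and -5.43 in WT and -5.91, -5.17 and -5.22 in Prss54KO, with overlap and a difference of 0.22 (SE 0.23).

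A set of collagens moved together between mice. Over the 6 mice, 10 of the 57 other tested collagen probes correlated with the bright Col3a1 probe at Pearson r over 0.8, which is 17.5%, against 2.48% of all tested probes. With Col3a1 itself the set held 11 probes for 10 genes: Col1a1 with 2 probes, Col1a2, Col3a1, Col4a1 at its dimmer probe, Col5a2, Col6a1, Col6a2, Col6a3, Col8a2 and Col12a1 at its dimmer probe. The set was picked by these correlations, so its values are a description. All 11 probes were lowest in knockout replicate 2, and 7 were highest in WT replicate 3. Knockout replicate 3 lay above the other knockout mice in all 11 and within the WT range in 5. The median deviation from each probe's mean over the 6 mice was 0.21, 0.03 and 0.37 in WT and -0.17, -0.62 and 0.11 in Prss54KO.

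Values within genotypes come from the same mice that chose the set and are a description too. After each genotype's mean was removed, 8 of the 10 probes kept r over 0.8 with Col3a1, and Col6a3 and Col12a1 gave 0.74 and 0.64. Over all 6 mice, 3 collagen probes had r under -0.7, 2 of Col2a1 and 1 of Col6a4, against 3.94% of all probes. The median SD among knockout mice was 0.38 for the 11 probes and 0.17 among WT mice. For the other 47 tested collagen probes these medians were 0.14 and 0.14, and for all tested probes 0.10 and 0.09. The differences of the 11 probes had a median of -0.41, and -0.25 without knockout replicate 2, and their sign follows from the choice of the set. Without that mouse the bright Col1a1 and Col3a1 probes gave -0.41 and -0.39, Col1a2 -0.20 and Col8a2 -0.30.

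**Figure D3:**
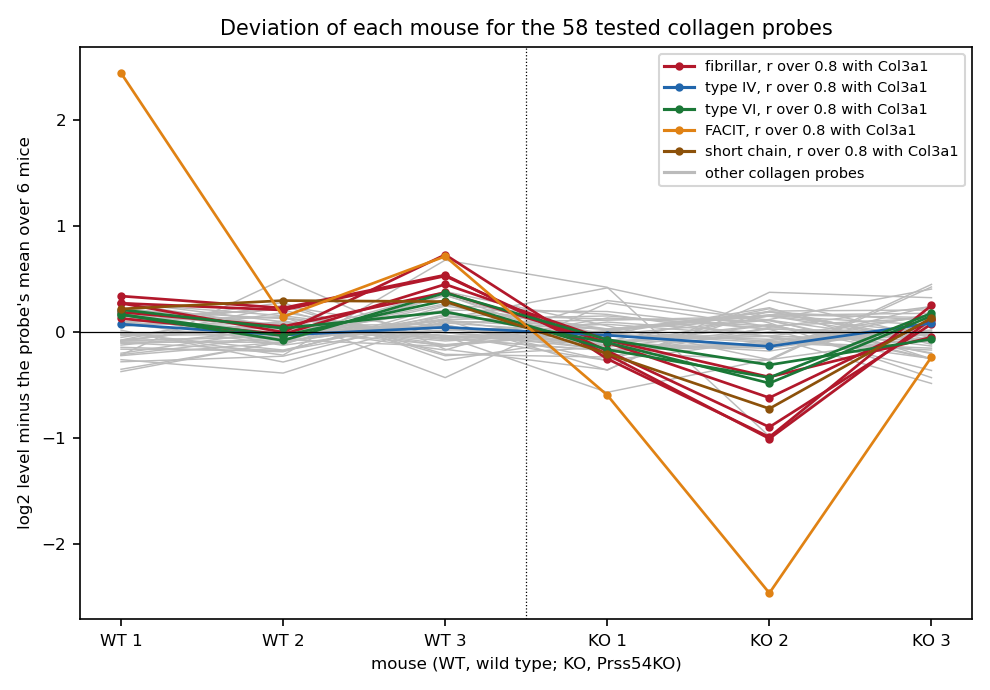
Deviation of each mouse (vertical axis, log2 level minus the probe's mean over the 6 mice) for the 58 tested collagen probes. Each line joins the values of 1 probe, coloured by class where r with the bright Col3a1 probe is over 0.8 and grey otherwise. The coloured probes dip together in knockout replicate 2, with a median of -0.62, and lie above 0 in WT replicates 1 and 3.

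For 6 pairs of collagens the correlation over the 6 mice was tested. Col1a1 and Col1a2, chains of one protein, correlated at r of 0.989 (exact permutation test, two-sided, p = 0.00556, adjusted over the 6 pairs 0.0167), with Spearman's rho of 0.943 (p = 0.0167, adjusted 0.05, by the same exact test). Col1a1 and Col3a1 correlated at 0.998 with rho of 1, each at p = 0.00278 by the exact permutation test, the smallest it can give here, or 0.0167 adjusted. Both held without the 2 mice farthest from the median Col1a1 level, knockout replicates 1 and 2, at r of 0.907 and 0.992. Col6a1 and Col6a2 correlated at 0.963 (exact permutation p = 0.0111, adjusted 0.0222; rho 0.829, p = 0.0583, adjusted 0.0875) and at 0.867 without those mice.

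The other 3 pairs involved a type IV or multiplexin chain. Col4a1 and Col4a2 correlated at 0.894 (exact permutation p = 0.025, adjusted 0.0375; rho 0.829, p = 0.0583, adjusted 0.0875), which dropped to 0.455 without WT replicate 1 and knockout replicate 2, so the relation rests on those mice. Col1a1 and Col4a1 gave 0.738 (exact permutation p = 0.0889, adjusted 0.107; rho 0.6, p = 0.242, adjusted 0.290), and -0.391 without knockout replicates 1 and 2. Col1a1 and Col15a1 gave 0.178 (exact permutation p = 0.547, and rho of 0.543 with p = 0.297 by the same test). Without knockout replicates 1 and 2 this r was 0.895. Within genotypes, after the genotype means were removed, r was 0.990 for Col1a1 with Col1a2, 0.996 with Col3a1, 0.832 for Col4a1 with Col4a2 and 0.944 for Col6a1 with Col6a2. For Col1a1 it was 0.559 with Col4a1 and -0.302 with Col15a1. Across all pairs of tested collagen probes the median r was 0.01, and 6.17% of 1653 pairs exceeded 0.8, against 3.68% of pairs of all tested probes. By class that share was 9.94% of 171 fibrillar, 14.5% of 55 type IV, 26.7% of 15 type VI and 0% of 55 FACIT pairs. The medians were 0.01, 0.36, 0.28 and -0.02. Pairs of probes for the same gene are included.

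**Figure D4:**
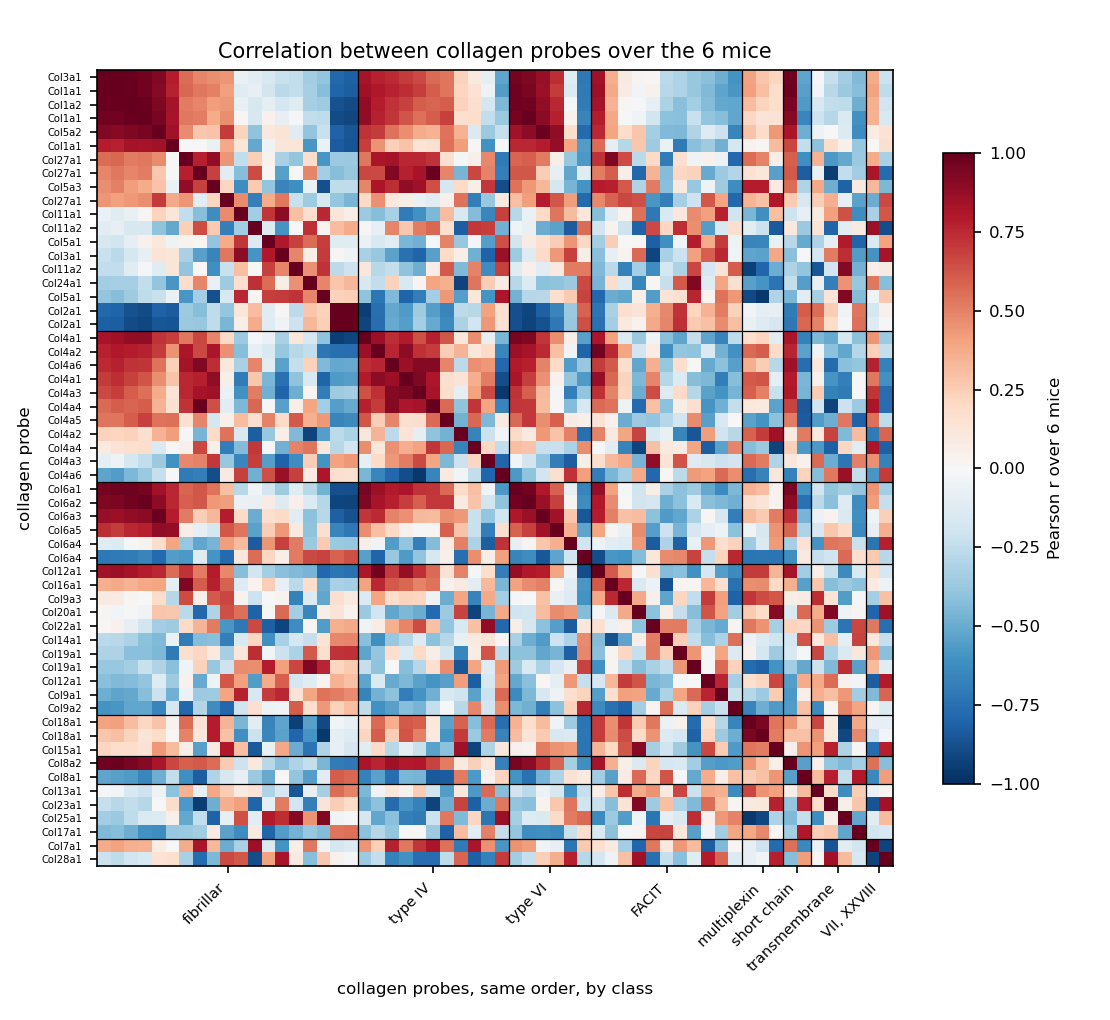
Pearson r over the 6 mice between the 58 tested collagen probes (red positive, blue negative), ordered on both axes by class and within a class by r with the bright Col3a1 probe. Red squares join the type I probes, the bright Col3a1 probe and Col5a2 at the top left. These are also red with most type IV probes, Col6a1, Col6a2, Col6a3 and Col8a2. The Col5a1, Col6a4 and dim Col3a1 probes had r below 0 with the bright Col3a1 probe, and the Col2a1 probes are blue against the red group. FACIT probes form no square, 0% of their pairs being over 0.8.

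The arrays lay on 3 slides, and the genotypes were not spread evenly over them. WT replicates 1 and 2 shared a slide, WT replicate 3 shared one with knockout replicates 1 and 2, and knockout replicate 3 was on the remaining one. On the slide with both genotypes, the difference was -1.15 for the bright Col1a1 probe, -1.07 for Col3a1, -0.73 for Col1a2, -0.48 for Col6a1, -0.60 for Col6a2, -0.10 for Col4a1, -0.14 for Col4a2, -0.58 for the dim Col4a5 probe and -0.02 for Col18a1. These values rest on 1 WT mouse, the one highest in most probes of the set. The dim Col3a1 probe and the GGN-repeat Col11a2 probe were -0.16 and -0.03 there, opposite in sign to their values over all mice. Markers of stromal fibroblasts were set beside these collagens and followed Col3a1 to different degrees. Of 14 such genes, 13 were well above background on all arrays and 13 were lower in Prss54KO, and their summed level (linear, relative to the 75th percentile) ran from 17.3 to 22.1 in WT and from 15.5 to 18.6 in Prss54KO, lowest in knockout replicate 2 and highest in WT replicate 3. None of the 15 stromal probes passed the adjusted test, 14 were below 0, and Lum, a small proteoglycan on collagen fibrils, differed by -0.94 (SE 0.44) and correlated with Col3a1 at r of 0.95. Fbln5, an elastic fibre protein, differed by -0.24 (SE 0.07), with r of 0.57. The 2 Thy1 probes differed by -0.71 (SE 0.23) and -0.13 (SE 0.27), with r of 0.87 and 0.05. The part of these genes in the collagen result was not tested, and in whole testis fewer cells of a type and less RNA per cell cannot be told apart.

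The other marker lists give the rest of that background, and in none did a probe pass the adjusted test. The summed level of peritubular smooth muscle genes was 23.0 to 25.1 in WT and 22.6 to 24.7 in Prss54KO, with 12 of 15 probes below 0. For Leydig cells it was 31.2 to 36.3 against 32.0 to 32.2, with 8 of 10 probes below 0, and for macrophages 67.2 to 79.6 against 66.2 to 75.5, with 10 of 12. For endothelial genes it was 5.03 to 5.19 against 4.51 to 5.31, with 7 of 13, for Sertoli cells 78.1 to 81.9 against 78.8 to 83.5, with 6 of 11, and for germ cells 1278 to 1334 against 1268 to 1364, with 6 of 16. The macrophage sum was 75.5 in knockout replicate 2, the highest of the knockout mice. In that mouse the median deviation over the 12 macrophage probes was the lowest of all mice, at -0.20. Red blood cell genes were 10.2 to 25.9 against 10.5 to 14.0, with 7 of 8 probes below 0 and a median of -0.44. Adipocyte genes summed to 2.72 to 3.18 against 2.76 to 3.33, while 7 of 8 of their probes were below 0, with a median of -0.27. The 2 measures disagreed in WT replicate 3, where the collagen set was also high. There the adipocyte sum was the lowest of all mice, at 2.72, while the median deviation over those 8 probes was the highest, at 0.53. The Fabp4 probes, of a fatty acid carrier, gave -0.77 (SE 0.52) and -0.79 (SE 0.59). The part of these genes in the collagen values was not tested. Epididymal genes, of which Lcn5, Lcn8 and Crisp1 were below background on all arrays, were 0.51 to 0.58 against 0.59 to 0.65, with 0 of 4 probes below 0. Of 7 cartilage and bone genes, Matn1, Sp7, Ibsp and Dmp1 were below background on all arrays. The sum over the 7 genes was 38.8 to 43.2 against 39.7 to 40.7, and 1 of 2 tested probes was below 0. Nearly all of that sum was Comp, with signals of 63174 to 71778 against 80.6 to 151 for Acan. All knockout mice lay below all WT mice in 2 of 15 peritubular probes, both for Itga8, at -0.19 and -0.25 (r with Col3a1 of 0.46 and 0.42). The same held for 1 of 13 endothelial probes, Cdh5 at -0.19 (r 0.74), and 1 of 10 Leydig probes, Hsd3b1 at -0.09 (r 0.90). In the peritubular, endothelial and Leydig lists 0 probes had all knockout mice above. In the epididymal list 1 of 4 did, Defb41 at 0.20 (r -0.53). The shares over all probes were 3.57% below and 4.2% above.

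Genes that make, cut and bind collagen did not pass the adjusted test either. Of 25 probes for collagen biosynthesis in the secretory pathway, 12 were below 0, the median was 0.01, and 1 had an unadjusted limma p under 0.05 (3.24% of all probes do). That was Serpinh1, the chaperone that binds newly wound collagen, with signals of 855, 889 and 938 in WT and 781, 684 and 806 in Prss54KO. All knockout mice were lower, replicate 2 the most, by 0.27 (SE 0.07), and its r with Col3a1 was 0.93. P4ha1, a prolyl hydroxylase subunit, differed by -0.16 (SE 0.07) at one probe and -0.01 (SE 0.07) at the other, and Creb3l1, a transcription factor of matrix secretion, by 0.26 (SE 0.14).

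Among 15 probes for processing and cross-linking, 10 were below 0, the median was -0.08, and 4 had an unadjusted limma p under 0.05, 2 in each direction, against 3.24% of all probes, 1.5% lower and 1.73% higher. Lox, the lysyl oxidase that cross-links fibrils, gave signals of 37.2, 43.0 and 53.3 in WT and 26.4, 15.9 and 39.8 in Prss54KO. Knockout replicate 3 overlapped the wild-type mice. The fitted difference was -0.81 (SE 0.32), but only 1 of 3 knockout arrays was well above background, so its size is uncertain. Pcolce2, an enhancer of procollagen cleavage, went the other way, with 316, 270 and 202 in WT and 348, 407 and 351 in Prss54KO and no overlap, a difference of 0.48 (SE 0.19). Adamts14, a procollagen peptidase, was higher by 0.23 (SE 0.07) with no overlap.

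Of 10 probes for collagen breakdown, 9 were below 0, with a median of -0.11 and none under 0.05. Timp3, a matrix-bound inhibitor of metalloproteinases, differed by -0.14 (SE 0.06), Mmp2, a gelatinase, by -0.15 (SE 0.12) and Pepd, a dipeptidase of collagen breakdown, by -0.13 (SE 0.09). Of 14 probes for collagen receptors, 7 were below 0, with a median of 0.00 and none under 0.05. Ddr2, a kinase receptor for fibrillar collagen, gave -0.37 (SE 0.16) and -0.06 (SE 0.06) at its 2 probes, and Lair1 and Itga1 probes ran from -0.13 to 0.22. Of 16 probes of the TGF-beta and CCN list, 12 were below 0, with a median of -0.04. Tgfb2, a growth factor that drives matrix genes, gave signals of 52.7, 63.5 and 58.7 in WT and 41.7, 38.2 and 55.4 in Prss54KO, which overlapped. It was above background on only 1 knockout array, and the fitted difference of -0.41 (SE 0.15) is uncertain in size. Smad3 differed by -0.17 (SE 0.07) and Cyr61 by 0.21 (SE 0.12).

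Outside the collagens, the 8 genes most like the bright Col3a1 probe over the 6 mice were Tnfaip8, Capn2, Cnnm2, Tor3a, Rpn1, Fmod, Lox and Elk3, at Pearson r of 0.976 to 0.991. Their differences ran from -0.81 for Lox, above background on only 1 knockout array, to -0.11 for Capn2. Since Col3a1 itself was lower, the choice of these genes fixes the sign. Fmod, fibromodulin, is a proteoglycan that binds type I fibrils, and Rpn1 is a subunit of the enzyme that attaches sugars in the secretory pathway.

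Promoter sequence was set beside the genes that moved together. RefSeq (GRCm38.p6) held 38 start sites for 35 collagen genes, and the 100 bases before each were searched on both strands for 3 motifs, the TATA box (TATAAA), the CCAAT box and the GC box (GGGCGG). On the opposite strand the GC box can share its last letters with the CCAAT box. The TATA box letters occurred in 2 of the 38 collagen windows and in 5.56% of all 32851 windows. The CCAAT box occurred in 4 collagen windows and in 18.9% of all, and the GC box in 18 collagen windows and in 24.7% of all. Those shown are for members of the set, chosen because Col1a2 correlated with Col3a1 at r of 0.989 and because Col6a2 and Col8a2 hold the GC box, written in capitals in either orientation. Each runs 5′ to 3′ on the strand of its gene, at chr1:45311438-45311537 (plus) for Col3a1, chr6:4505518-4505617 (plus) for Col1a2, chr10:76623405-76623504 (minus) for Col6a2 and chr4:126286694-126286793 (plus) for Col8a2.
Col3a1: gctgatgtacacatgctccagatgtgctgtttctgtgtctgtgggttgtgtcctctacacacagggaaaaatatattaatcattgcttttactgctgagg
Col1a2: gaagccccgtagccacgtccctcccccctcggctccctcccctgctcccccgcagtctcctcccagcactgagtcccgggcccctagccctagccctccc
Col6a2: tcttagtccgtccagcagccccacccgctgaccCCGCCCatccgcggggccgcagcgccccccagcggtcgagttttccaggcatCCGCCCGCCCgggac
Col8a2: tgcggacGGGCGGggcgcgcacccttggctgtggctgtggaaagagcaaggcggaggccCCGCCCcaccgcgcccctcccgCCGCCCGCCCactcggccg
Of the other members of the set, Col4a1, Col6a1 and Col6a3 hold none of these letters in this window, as is the case for Col3a1 and Col1a2. Promoters of Col1a1, Col5a2 and Col12a1 were not analysed here. A second Col6a2 start site in RefSeq also holds none. The other collagen windows with the GC box belong to genes outside the set, and a link between the motif and the set was not tested.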

How the data were processed

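Spot intensity, linear in scale, was read from the deposited scanner files, written by Agilent Feature Extraction 10.7.3.1 per the file headers and 10.7 per the submitters' processing notes, with probe positions on mm9. The processed signal is the brightness after that software's background treatment. The deposited series table holds log2 values and served as an alternative only. The sources used here do not give its steps.

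For each array, the 75th percentile was subtracted from the log2 processed signal, with 86 to 142 outlier spots per array left out and spots of a probe averaged. Probes that 3 or more of the 6 arrays read well above background were fitted with limma 3.58.1 in R 4.3.3 (two-sided; lmFit and eBayes) and p-values adjusted by Benjamini-Hochberg over 28913 probes and a threshold of 0.05. The number of arrays, 3 per genotype, limits the precision. The fit was tested on simulated data.

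The members and lists were chosen with earlier results of these data known. Values per mouse are given for the brightest probe of 18 collagens, for the 5 lower and 5 higher collagen probes with the smallest p, and for every tested probe of a gene whose probes disagreed in sign or by over 0.3. Up to 3 genes with the smallest p came from each pathway list and from the stromal, peritubular, endothelial, Leydig, adipocyte, epididymal and cartilage markers. In all, 73 collagen probes matched RefSeq by accession and 13 by symbol. Alternatives covered scaling, background correction, dim-probe filter, slide, replicate number, array weights, variance model and each mouse left out. Exons and untranslated regions were not analysed here.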

Additional observations from a re-analysis of the deposited data

How the results depend on the processing

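No collagen probe passed an adjusted p of 0.05 in the main fit or under any of 19 alternatives, and 22 of the 33 probes given per mouse kept their sign in every alternative run on them. The lowest adjusted p among them was 0.461 (limma). The count of collagen probes at an unadjusted p under 0.05 was 7. It became 11 of 58 with normexp background correction (2.97% of all probes), 3 of 86 with no filter on dim probes (4.06%), 14 of 58 with slide as a fixed block (4.36%), 14 with the replicate number as a block (3.90%), 13 with array weights (4.89%), and 1 to 15 with a mouse left out. With no filter, and without WT replicate 1, the collagen share was below that of all probes. Same-numbered mice gave r of -0.04, 0.02 and -0.15 between their deviations, and differently numbered mice -0.14 to 0.16. With 3 mice per genotype, these values cannot tell whether the numbers pair the mice. The replicate block left the collagen median at -0.08. The collagen median of -0.08 became -0.032 with no filter and ran from -0.11 to -0.06 with a mouse left out. The fibrillar median of -0.21 became -0.11 with a filter on all 6 arrays, reversed to 0.011 with no filter, and ran from -0.21 to -0.032 with a mouse left out. The type IV median of -0.078 ran from -0.16 to -0.038 with a mouse left out. Over all probes, 1 passed with normexp, with the filter on all 6 arrays and with slide as a fixed block, and 2 with an intensity trend. Prss54 passed at -1.54 with normexp, and at -1.57 both with the 6-array filter and with the trend.

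The probes that changed sign were mostly near 0. With normexp these were Col4a5 (0.0027) and the brighter Col11a2 probe (-0.071). With slide as a fixed block, which gives the same estimates as the slide with both genotypes alone, they were the dim Col3a1 probe (-0.16), Col5a1 (-0.19), the GGN-repeat Col11a2 probe (-0.035), the Col12a1 probe above background on all arrays (0.020), both Col19a1 probes (0.14 and -0.11) and Col25a1 (-0.058). With array weights it was the same Col12a1 probe (0.015). With a mouse left out, the ranges were -0.59 to 0.11 for the dim Col1a1 probe, -0.020 to 0.20 for the dim Col3a1 probe, -0.013 to 0.081 for Col4a4, -0.24 to 0.15 for Col4a5, -0.024 to 0.17 for Col5a1, -0.082 to 0.16 for the brighter Col11a2 probe, -0.15 to 0.090 for Col12a1 and -0.24 to 0.15 for the brighter Col19a1 probe. The cause was not tested. Dim probes, such as those of Col4a5 and Col12a1, lie near background, which limits what their differences can show.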
